A study of Mus musculus with 4 samples.

Results

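The genes described here are the enzymes and carriers that protect cells from reactive oxygen species and electrophiles: glutathione S-transferases, glutathione peroxidases, peroxiredoxins, superoxide dismutases, the thioredoxin system, metallothioneins, and the genes of glutathione synthesis and of the Nrf2 response. They were chosen by gene symbol, with earlier results of these data known. Of the 17097 genes that the arrays name, 51 were members. Another 10 symbols of the same families (Gsta1, Gsta3, Gsto2, Gstp2, Gstt4, Gstz1, Keap1, Mt2, Prdx5 and Prdx6) were not named by a probe set of their own in the annotation used and were not analysed here. The data come from dorsal skin of male C3H mice, aged 8 weeks at the start, whose backs were shaved before daily topical application. Arrays TCQA 1 and TCQA 2 hold skin given TCQA, a caffeoylquinic acid derivative, at 1% for 30 days, and arrays Control 1 and Control 2 hold skin given Milli-Q water. TCQA had first been dissolved in ethanol before dilution in water. The labels date the skin to day 30 and the paper to day 37. The methods give 5 mice per group, but not how many mice each array holds, so p-values measure only how far these arrays vary, and that variation may be technical.

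Superoxide dismutases turn superoxide into hydrogen peroxide, which catalase, glutathione peroxidases and peroxiredoxins then remove. Glutathione peroxidases draw on glutathione, which Gsr regenerates, and peroxiredoxins draw on thioredoxin, which the thioredoxin reductases regenerate. Glutathione S-transferases attach glutathione to electrophiles, and metallothioneins bind zinc and copper. Nrf2, encoded by Nfe2l2, induces many of these genes through the antioxidant response element when its inhibitor Keap1 is modified, and in skin it is known for protecting keratinocytes. The metallothionein genes respond to metals through the metal response element, which binds Mtf1.

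Promoter windows from RefSeq (GRCm38.p6), from 250 bases before to 50 bases after the annotated start, were available for 45 of the 51 genes. They were searched on both strands for the antioxidant response element core TGACNNNGC, which can overlap the AP-1 site letters TGACTCA, and for the metal response element, spelled TGCGCNC or TGCACNC. The first was found in 9 of the 57 member windows (15.8%), against 12.4% of all 32851 windows, and the second in 17 of 57 (29.8%), against 25.7% of all windows. Prdx1 and Srxn1 are shown because each holds 1 antioxidant response element match but they differed over the arrays in the probe sets used here. Mt1 is shown because it holds 3 metal response element matches. Srxn1 also holds 1 metal response element match (GAGCGCA), upstream of its antioxidant response element match (GCTAGGTCA). All lie on the plus strand and are written 5′ to 3′ with all matches to either motif in capitals, those of Prdx1 and Srxn1 as the reverse complement of the motif. The windows are chr4:116685349-116685648 for Prdx1, chr2:152105274-152105573 for Srxn1 and chr8:94178839-94179138 for Mt1. A match is a description of the sequence only.
Prdx1: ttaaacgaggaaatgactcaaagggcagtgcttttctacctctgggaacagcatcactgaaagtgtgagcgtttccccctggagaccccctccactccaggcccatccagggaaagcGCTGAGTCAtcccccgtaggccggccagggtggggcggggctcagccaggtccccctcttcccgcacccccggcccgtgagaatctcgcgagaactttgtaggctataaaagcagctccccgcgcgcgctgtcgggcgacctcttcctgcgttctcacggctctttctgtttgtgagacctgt
Srxn1: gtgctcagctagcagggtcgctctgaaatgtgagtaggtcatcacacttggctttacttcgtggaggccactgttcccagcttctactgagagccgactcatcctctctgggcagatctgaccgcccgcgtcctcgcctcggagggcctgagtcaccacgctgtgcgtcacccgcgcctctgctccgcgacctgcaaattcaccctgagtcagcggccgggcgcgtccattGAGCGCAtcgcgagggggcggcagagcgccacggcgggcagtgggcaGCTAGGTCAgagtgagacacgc
Mt1: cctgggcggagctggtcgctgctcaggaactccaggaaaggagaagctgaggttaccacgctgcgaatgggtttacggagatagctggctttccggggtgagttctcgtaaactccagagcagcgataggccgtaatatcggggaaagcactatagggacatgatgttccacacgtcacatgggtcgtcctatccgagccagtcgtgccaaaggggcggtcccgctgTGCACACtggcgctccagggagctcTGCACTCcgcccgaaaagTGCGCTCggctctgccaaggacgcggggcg

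Control 1 stood apart from the other arrays. Over 45037 probe sets, the correlation of Control 2 was 0.956 with TCQA 1, 0.884 with TCQA 2 and 0.413 with Control 1 (Pearson r), a description of the arrays in which probe sets are not independent replicates. Markers of the labelled tissue were high on Control 1 only, by at least 2 over every other array for 6 of 8 keratinocyte genes. That excess was seen for 12.0% of all genes. Lor, a cornified envelope protein, was low on all 4 arrays (between 1.26 and 1.58). The median log2 value of 8 keratinocyte markers was 2.60 on TCQA 1 and 2.85 on TCQA 2, against 7.14 on Control 1 and 2.78 on Control 2. Krt14, a keratin of basal keratinocytes, had log2 values of 2.37 and 2.70 on the TCQA arrays and of 8.67 and 2.86 on Control 1 and Control 2. Values are RMA log2 values as the authors deposited them, 1 per probe set and array, and a log2 difference of 1 is 2-fold. The median over all probe sets was 2.54 on TCQA 1, 2.49 on TCQA 2, 2.55 on Control 2 and 2.30 on Control 1. Probe sets at 8 or more numbered 31, 23, 26 and 522, in that order. On TCQA 1, TCQA 2 and Control 2 the member medians (2.70 to 2.77) lay near the array medians. Overlap between these arrays therefore does not show equal expression. Each gene is represented by its probe set with the highest mean over the 4 arrays, in which Control 1 counts. Levels are compared between arrays only, since probe sets differ in their brightness per transcript. In whole skin, fewer cells of a type and less RNA per cell cannot be told apart.

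None of the 51 genes was shown to differ between TCQA-treated and control skin beyond the spread between arrays. The log2 ratio, the mean of the TCQA arrays minus that of the control arrays and so the log2 fold change, was positive for 12 members and negative for 39, that is 76.5% negative against 43.8% of all genes. Their median log2 ratio was -0.52, against 0.08 over all genes. Without Control 1, the count was 29 positive and 22 negative and the median was 0.08, against -0.03 over all genes. In limma, 0 of 51 passed a Benjamini-Hochberg adjusted p of 0.05, as did 0 of all genes (0%), and 0 of 51 had an unadjusted p under 0.05 in limma or with an unmoderated test. The thresholds of the study were taken as 2-fold or more with an unadjusted p up to 0.05, here from limma. They were passed by 0 members in either direction, against 0.140% of all genes on the higher side and 0.170% on the lower side. The paper's table notes name the 2-fold change as the criterion, beside p-values from an analysis of variance. By fold alone, members such as Prdx1 (log2 ratio -3.0) pass on the lower side. The highest log2 ratio of a member was 0.89, which is below 2-fold. The smallest limma adjusted p of a member was 0.92. An exact permutation of 2 arrays against 2 cannot go below p = 0.333, so a gene that missed the threshold is not shown to be unchanged.

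Control 1 held the highest of the 4 values for 35 members (68.6%), against 33.9% of all genes, and the lowest for 11 (21.6%), against 53.6% of all genes. It exceeded every other array by at least 2 on the log2 scale for 21 members (41.2%), against 12.0% of all genes. The other 3 arrays lay close together. Their range was under 1 for 49 of the 51 genes, and for 16114 of all 17097 genes. Its median was 0.34 over the members, against 0.41 over all genes, and it reached 1.17 for Gstm7 and 1.07 for Mgst1. For 14 members Control 2 lay between both TCQA arrays (27.5%), against 38.0% of all genes. Both TCQA arrays lay above both control arrays for 5 members (9.80%), against 16.0% of all genes, and below them for 10 (19.6%), against 13.6%. The 5 were Gpx2, Gpx5, Gstm6, Hmox1 and Mgst2, and the 10 were Gpx4, Gsta4, Gstk1, Gstm1, Gstm5, Gsto1, Gstt2, Gstt3, Sod2 and Txn2.

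**Figure D1:**
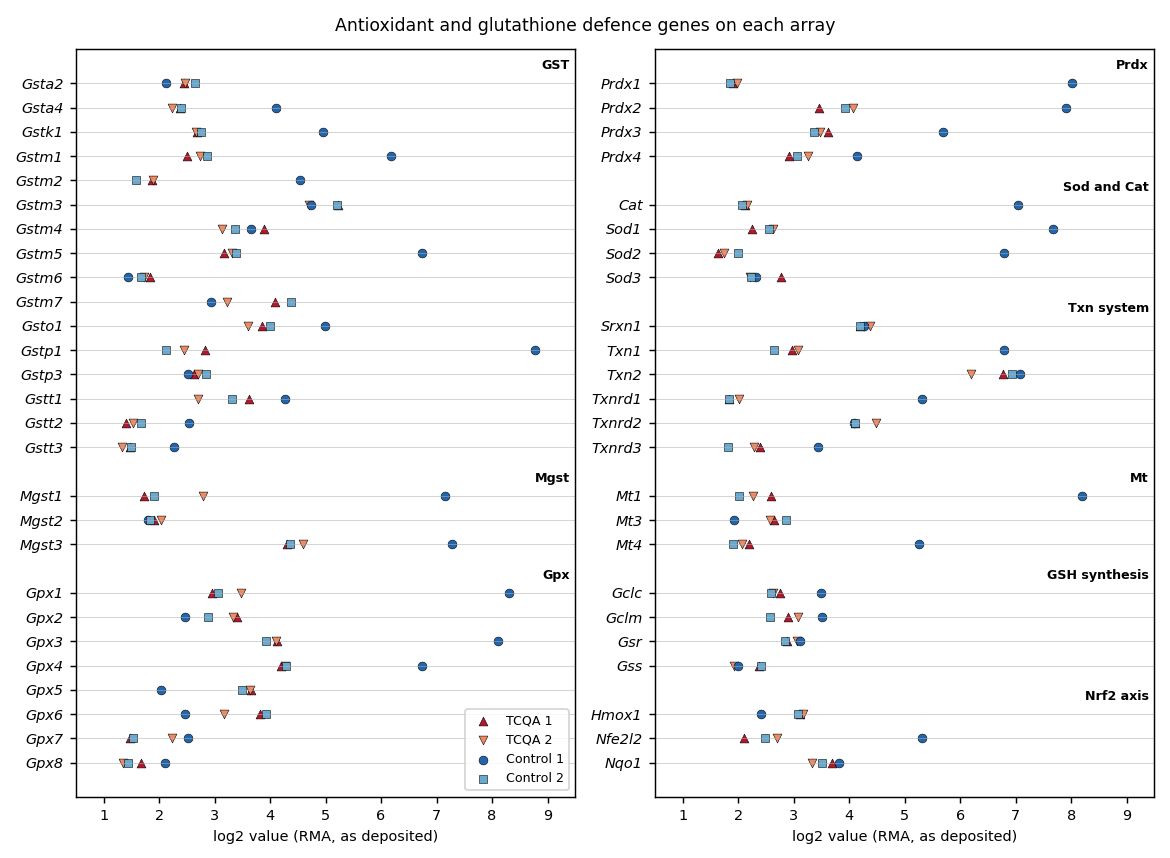
Log2 value (x axis) of each of the 51 genes (rows, grouped by family) on TCQA 1, TCQA 2, Control 1 and Control 2, 1 symbol per array. Control 1 lies to the right of the other symbols by at least 2 for 21 genes, such as Gstp1, where it is 8.78 and the others lie between 2.12 and 2.83.

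Superoxide dismutases and catalase had a median log2 ratio of -2.54 over 4 genes, and -0.01 without Control 1. Sod1, the cytosolic copper-zinc dismutase, had log2 values of 2.25 on TCQA 1 and 2.63 on TCQA 2, against 7.67 on Control 1 and 2.55 on Control 2. Control 1 alone was high, and Control 2 was between TCQA 1 and TCQA 2. The mean of Sod1 was 2.44 ± 0.27 with TCQA and 5.11 ± 3.62 in the control (SD, n = 2 each), with a log2 ratio of -2.67 (limma adjusted p = 0.92, standard error 1.74). Sod2, the mitochondrial manganese dismutase, had 1.63 and 1.74 on the TCQA arrays, against 6.79 on Control 1 and 2.00 on Control 2. Both TCQA arrays were below both control arrays, and the log2 ratio of -2.71 (limma adjusted p = 0.92, standard error 1.63) was -0.31 without Control 1. Cat, the peroxisomal catalase, had 2.12 and 2.16 with TCQA, against 7.03 on Control 1 and 2.07 on Control 2. Control 2 was below both TCQA arrays, by less than 0.1 on the log2 scale. Its log2 ratio was -2.41 (limma adjusted p = 0.92, standard error 1.69), and 0.08 without Control 1. Sod3, the extracellular dismutase, had 2.77 and 2.21 with TCQA, against 2.32 on Control 1 and 2.23 on Control 2. The groups of Sod3 overlapped, and its log2 ratio was 0.22 (standard error 0.37).

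Among 8 glutathione peroxidases, Gpx1, Gpx3 and Gpx4 were high on Control 1 and Gpx2, Gpx5 and Gpx6 were low on it. The median log2 ratio of the family was -0.22, and 0.16 without Control 1. Gpx1, the cytosolic selenoenzyme, had log2 values of 2.95 and 3.47 on the TCQA arrays, against 8.30 on Control 1 and 3.05 on Control 2. Gpx3, the secreted plasma enzyme, had 4.13 and 4.10 with TCQA, against 8.11 on Control 1 and 3.93 on Control 2. Gpx4, which reduces lipid peroxides in membranes, had 4.20 and 4.27 with TCQA, against 6.74 on Control 1 and 4.28 on Control 2. Control 1 alone was high for these 3 genes, the groups overlapped for Gpx1 and Gpx3, and for Gpx4 both TCQA arrays were below Control 2 by less than 0.1. The log2 ratios were -2.47 for Gpx1 (standard error 1.79), -1.91 for Gpx3 (standard error 1.43) and -1.28 for Gpx4 (standard error 0.88), and 0.16, 0.18 and -0.05 without Control 1. Gpx2, an enzyme first known from gut epithelium, had 3.41 and 3.33 with TCQA, against 2.46 on Control 1 and 2.88 on Control 2. Both TCQA arrays were above both control arrays, with a mean of 3.37 ± 0.05 with TCQA and 2.67 ± 0.30 in the control (SD, n = 2 each). The log2 ratio of Gpx2 was 0.70 (limma adjusted p = 0.92, standard error 0.35) and 0.49 without Control 1. Gpx5, an epididymal enzyme in mice, had 3.66 and 3.64 with TCQA, against 2.03 on Control 1 and 3.48 on Control 2. Its log2 ratio was 0.89 (limma adjusted p = 0.92, standard error 0.58), and 0.17 without Control 1, the lowest of the 4 arrays. Gpx6, Gpx7 and Gpx8 had log2 ratios of 0.30, -0.17 and -0.26, and their groups overlapped.

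In the chosen probe sets the log2 ratio was negative for all 4 peroxiredoxins, and its median was -1.57, or 0.05 without Control 1. Prdx1, a cytosolic peroxidase, had log2 values of 1.90 and 1.97 on the TCQA arrays, against 8.02 on Control 1 and 1.85 on Control 2. The 3 arrays other than Control 1 spanned 0.12, and Control 2 was the lowest of them. The mean was 1.94 ± 0.05 with TCQA and 4.93 ± 4.36 in the control (SD, n = 2 each), a log2 ratio of -3.0 (limma adjusted p = 0.92, standard error 2.08). Prdx2, abundant in erythrocytes, had 3.45 and 4.07 with TCQA, against 7.90 on Control 1 and 3.92 on Control 2, a log2 ratio of -2.15 (standard error 1.38). Prdx3, the mitochondrial member, had 3.61 and 3.47 with TCQA, against 5.70 on Control 1 and 3.36 on Control 2, a log2 ratio of -0.99 (standard error 0.84). For both genes the groups overlapped. Prdx4, of the endoplasmic reticulum, had a log2 ratio of -0.51 (standard error 0.49) in its chosen probe set. Its 4 probe sets ranged from -0.51 to 0.74. The one with 0.74 had 1.84 and 2.02 with TCQA, against 1.05 on Control 1 and 1.33 on Control 2.

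In the chosen probe sets, the cytosolic pair of thioredoxin and its reductase exceeded every other array on Control 1 by at least 2. The mitochondrial pair did not. Txn1, the cytosolic thioredoxin, had log2 values of 2.97 and 3.07 on the TCQA arrays, against 6.79 on Control 1 and 2.64 on Control 2. Txnrd1, its reductase, had 1.83 and 2.01 with TCQA, against 5.32 on Control 1 and 1.83 on Control 2. Only Control 1 was high for this pair, with log2 ratios of -1.69 for Txn1 (standard error 1.42) and -1.65 for Txnrd1 (standard error 1.21) that were 0.38 and 0.09 without it. Txn2, the mitochondrial thioredoxin, had 6.77 and 6.19 with TCQA, against 7.07 on Control 1 and 6.94 on Control 2. Both TCQA arrays were below both control arrays. The means of Txn2 were 6.48 ± 0.41 with TCQA and 7.01 ± 0.09 in the control (SD, n = 2 each), with a log2 ratio of -0.52 (limma adjusted p = 0.92, standard error 0.37) that was -0.46 without Control 1 and 0.77 after a further quantile normalization. Txnrd2, the mitochondrial reductase, had 4.10 and 4.48 with TCQA, against 4.09 on Control 1 and 4.10 on Control 2, and Control 1 did not stand apart. Txnrd3, a testis-rich reductase, had a log2 ratio of -0.28 that was 0.53 without Control 1. Srxn1, which repairs overoxidized peroxiredoxins and is a classical Nrf2 target, had 4.20 and 4.36 with TCQA, against 4.27 on Control 1 and 4.19 on Control 2. In this chosen probe set of Srxn1 all 4 arrays lay within 0.2 of each other, with a log2 ratio of 0.05 (standard error 0.32). Another of its probe sets did not show this, as given below. The median over the 6 genes was -0.40, and 0.14 after a further quantile normalization.

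The log2 ratio was positive for 3 and negative for 13 of the 16 glutathione S-transferases, with a median of -0.64 that was -0.15 without Control 1. Gstp1, the pi-class enzyme of epithelia, had log2 values of 2.83 and 2.45 on the TCQA arrays, against 8.78 on Control 1 and 2.12 on Control 2. Control 2 was below both TCQA arrays, and the log2 ratio of -2.81 (limma adjusted p = 0.92, standard error 2.25) was 0.51 without Control 1. Gstm1, a mu-class enzyme, had 2.50 and 2.74 with TCQA, against 6.18 on Control 1 and 2.86 on Control 2. Its log2 ratio was -1.90 (limma adjusted p = 0.92, standard error 1.15) and -0.24 without Control 1. The 7 mu-class genes did not share this pattern. Gstm1, Gstm2 and Gstm5 were above every other array on Control 1 by 3.32, 2.64 and 3.36 in the chosen probe sets, whereas Gstm3, Gstm4, Gstm6 and Gstm7 were not highest on it. Gstm3 had 5.22 and 4.70 with TCQA, against 4.74 on Control 1 and 5.21 on Control 2, and Gstm7 had 4.08 and 3.22 with TCQA, against 2.94 on Control 1 and 4.38 on Control 2. Both genes had a log2 ratio of -0.01 with overlapping groups (0.59 for Gstm3 after a further quantile normalization), and for Gstm7 it was -0.73 without Control 1 and 0.71 without Control 2. Mu-class genes are close paralogs, and probes shared between them could split their signal. Gstk1, the mitochondrial and peroxisomal kappa-class enzyme, and Gsta4, which acts on lipid aldehydes, had log2 ratios of -1.18 and -0.95, with -0.07 and -0.10 without Control 1. The omega-class Gsto1 had 3.85 and 3.60 with TCQA, against 4.98 on Control 1 and 4.0 on Control 2, a log2 ratio of -0.76 (standard error 0.46) with -0.27 without Control 1. The 3 theta-class genes had log2 ratios between -0.64 and -0.48, and between -0.21 and -0.09 without Control 1. The log2 ratio was 0.00 for Gstm4, 0.23 for Gstm6, 0.065 for Gsta2 and -0.01 for Gstp3.

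The membrane-bound Mgst enzymes, which conjugate glutathione and reduce lipid peroxides, had a median log2 ratio of -1.38 over 3 genes, and 0.14 without Control 1. Mgst1 had log2 values of 1.72 and 2.79 on the TCQA arrays, against 7.16 on Control 1 and 1.91 on Control 2. Mgst3 had 4.30 and 4.59 with TCQA, against 7.28 on Control 1 and 4.36 on Control 2. Control 1 alone was high for both, and Control 2 was between TCQA 1 and TCQA 2. The log2 ratios were -2.28 (standard error 1.81) for Mgst1 and -1.38 (standard error 1.03) for Mgst3. Mgst2 had 1.91 and 2.03 with TCQA, against 1.79 on Control 1 and 1.83 on Control 2, both TCQA arrays being higher, with a log2 ratio of 0.16 (standard error 0.32).

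Genes of glutathione synthesis and reduction spanned under 1 on the log2 scale over all 4 arrays, Control 1 included, and none of the 4 was above every other array on Control 1 by as much as 1. Gclc, the catalytic subunit of glutamate-cysteine ligase, the rate-limiting enzyme, had log2 values of 2.76 and 2.62 on the TCQA arrays, against 3.49 on Control 1 and 2.59 on Control 2. Gclm, its modifier subunit, had 2.89 and 3.08 with TCQA, against 3.50 on Control 1 and 2.57 on Control 2. Control 1 was the highest and Control 2 the lowest array for both subunits, with log2 ratios of -0.35 (standard error 0.44) for Gclc and -0.05 (standard error 0.45) for Gclm that were 0.10 and 0.41 without Control 1. Gss, glutathione synthetase, had 2.37 and 1.91 with TCQA, against 2.00 on Control 1 and 2.41 on Control 2. Gsr, glutathione reductase, had 2.88 and 3.05 with TCQA, against 3.12 on Control 1 and 2.83 on Control 2. The groups overlapped for both, with log2 ratios of -0.06 (standard error 0.38) and -0.01 (standard error 0.34).

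Of the 3 genes placed here in the Nrf2 axis, Nfe2l2 itself was high on Control 1 and its targets Nqo1 and Hmox1 were not. Some other Nrf2 targets were high on Control 1, which exceeded every other array by 3.31 for Txnrd1. The excess was 3.04 for the epoxide hydrolase Ephx1 and 2.54 for the aldehyde dehydrogenase Aldh3a1, both named after their values were seen. Of 16 listed Nrf2 cofactors and other targets, 5 had an excess of at least 2, against 12.0% of all genes. Srxn1, a classical target, was not highest on Control 1. Nfe2l2 had log2 values of 2.11 and 2.70 on the TCQA arrays, against 5.31 on Control 1 and 2.48 on Control 2. The value of Control 2 fell between those of TCQA 1 and TCQA 2, and the log2 ratio of -1.49 (limma adjusted p = 0.92, standard error 1.01) was -0.07 without Control 1. Nqo1, a quinone reductase, had 3.70 and 3.32 with TCQA, against 3.82 on Control 1 and 3.51 on Control 2. Hmox1, the inducible haem oxygenase, had 3.11 and 3.17 with TCQA, against 2.41 on Control 1 and 3.07 on Control 2. The groups of Nqo1 overlapped, with a log2 ratio of -0.16 (standard error 0.36), while both TCQA arrays were above both control arrays for Hmox1, with 0.40 (limma adjusted p = 0.92, standard error 0.39) that was 0.07 without Control 1. The median over the 3 genes was -0.16, and 0.09 after a further quantile normalization.

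Metallothioneins gave mixed values over 3 genes. Mt1, the widely expressed and metal-inducible form, had log2 values of 2.58 and 2.27 on the TCQA arrays, against 8.19 on Control 1 and 2.01 on Control 2. Mt4, the form of stratified squamous epithelia, had 2.18 and 2.07 with TCQA, against 5.26 on Control 1 and 1.91 on Control 2. Control 1 was high for both, and Control 2 was below both TCQA arrays. The log2 ratios were -2.68 (standard error 2.09) for Mt1 and -1.46 (standard error 1.16) for Mt4, and 0.41 and 0.22 without Control 1. Mt3, the form known from brain, had 2.64 and 2.57 with TCQA, against 1.92 on Control 1 and 2.86 on Control 2, and a log2 ratio of 0.22 (standard error 0.45).

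The counts of members past the test depended on which control array was kept. Without Control 1, the 51 log2 ratios lay between -0.73 (Gstm7) and 0.53 (Txnrd3), and 0 passed an adjusted p of 0.05, or an unadjusted p of 0.05, in limma. Without Control 2, 25 members passed an adjusted p of 0.05 in limma as lower with TCQA (49.0%), against 20.3% of all genes, and 1 passed as higher, Gpx5 (1.96%), against 8.40% of all genes. In these fits the remaining control array is assumed to vary like the TCQA arrays. Examples without Control 2 are a log2 ratio of -6.14 for Gstp1 and -6.08 for Prdx1, where Control 2 in place of Control 1 gave 0.51 and 0.08. Without TCQA 1 or without TCQA 2, 0 members passed either p in limma, and the median was -0.59 and -0.55.

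**Figure D2:**
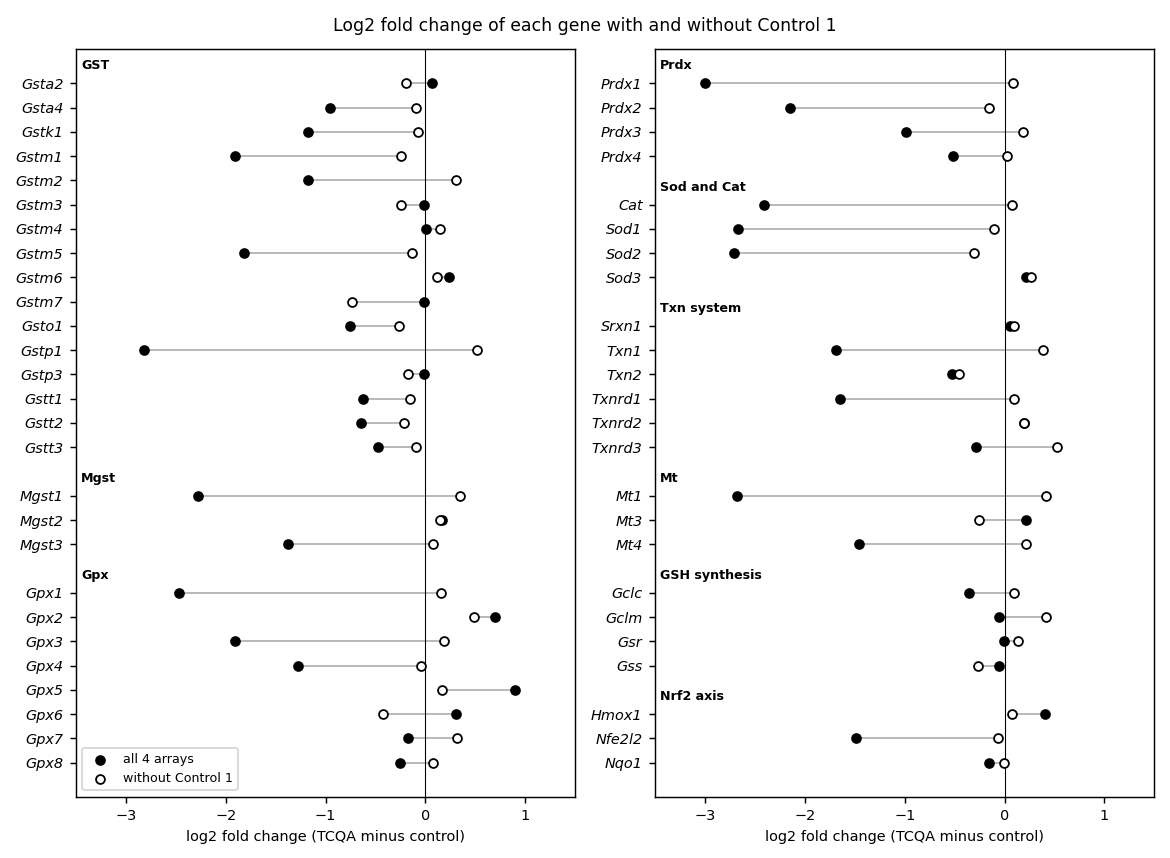
Log2 fold change (TCQA minus control, x axis) of each gene (rows, grouped by family) with all 4 arrays (filled) and without Control 1 (open). Values with all arrays reach -3.0 for Prdx1, and without Control 1 all lie between -0.73 and 0.53.

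Several probe sets measured 21 of the members, 84 probe sets serving all 51 genes. For 11 of the 21 genes the log2 ratios of the probe sets differed in sign. A second Sod1 probe set had log2 values of 2.70 and 2.01 on the TCQA arrays, against 1.75 on Control 1 and 2.46 on Control 2, and the Control 1 excess was absent from it. Of 4 Gstm1 probe sets, 2 were above every other array on Control 1 by at least 2, with log2 ratios of -1.90 and -2.10, and the others had -0.32 and 0.01. Choosing without Control 1 took the one with -0.32. Of 4 Sod2 probe sets, 3 were above every other array on Control 1 by at least 2, with log2 ratios between -2.71 and -1.86, and the other had 0.41. The second probe sets of Mt1, Mgst1, Prdx2 and Nfe2l2 had 0.09, 0.35, 0.29 and -0.01. The 4 Srxn1 probe sets had log2 ratios between -0.18 and 0.24. The one with 0.24 had 3.84 and 3.98 with TCQA, against 2.96 on Control 1 and 4.37 on Control 2. Of the Txn2 probe sets not used above, 1 exceeded every other array on Control 1 by 1.25, with a log2 ratio of -0.86. The other exceeded them by 0.03, with -0.43. Both probe sets of Cat, Gpx4 and Prdx1 were high on Control 1, with -3.12, -3.28 and -2.47 for the ones not used above. When Control 1 was left out of the choice, another probe set was chosen for 6 genes (Gstm1, Mgst1, Mt1, Prdx1, Sod2 and Txnrd3). Among the chosen probe sets, 37 were plain, 9 carried the suffix for transcripts of 1 gene, 3 that for probes shared between genes and 2 that for partly cross-matching probes. The chosen probe sets of Mt1, Gstm3 and Srxn1 are of the shared kind, and those of Gstm1 and Gpx4 of the partly cross-matching kind. The signal of these 5 may include related transcripts.

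**Figure D3:**
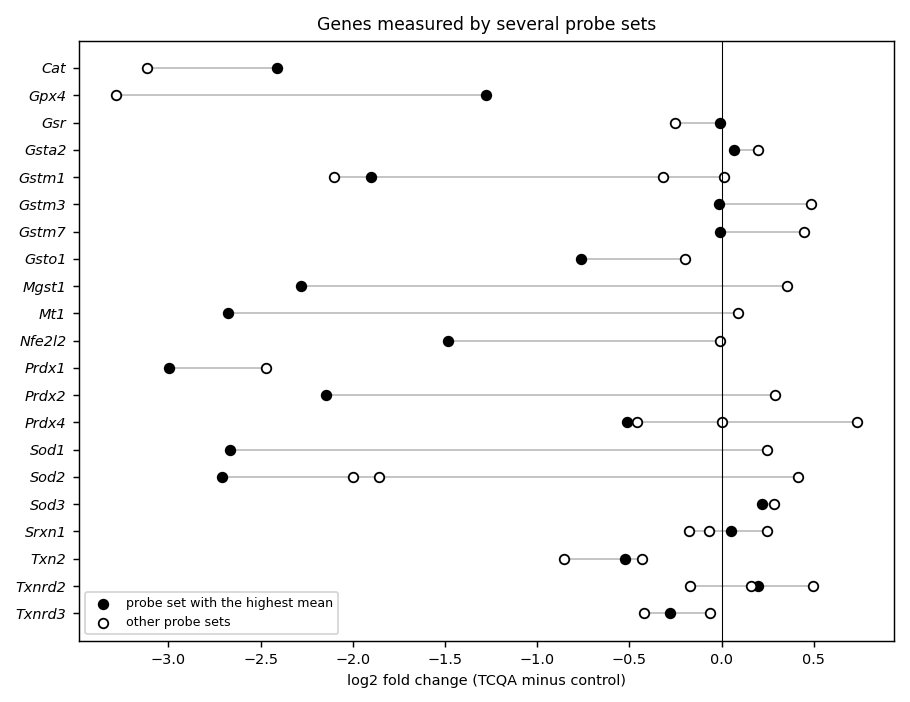
Log2 fold change (TCQA minus control, x axis) of every probe set of the 21 genes with several (rows). Filled symbols are the probe sets with the highest mean over the 4 arrays and open symbols the others, which for Sod2 lie at -2.0, -1.86 and 0.41.

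Beyond these families, 74 of 83 other listed genes of redox metabolism were measured. Their log2 ratio was positive for 23 and negative for 51, where 43.8% of all genes were negative, with a median of -0.61 that was -0.07 without Control 1. The Control 1 excess of at least 2 was seen for 26, and for 12.0% of all genes. Suppliers of NADPH, which both reductase systems consume, had a median of -1.40 over 8 genes, and the haem and iron genes had -0.86 over 7. For these lists the medians without Control 1 were -0.08 and 0.11. Cystine and glutathione transport and turnover had a median of 0.09 over 15 genes, and superoxide sources such as the NADPH oxidases had 0.13 over 7, and without Control 1 both medians turned to -0.13. The Nrf2 cofactors and other targets had a median of -0.98 over 16 genes, 13 of them negative, and -0.15 without Control 1. Of these 16, Control 1 was the highest array for 11, against 33.9% of all genes. It exceeded every other by at least 2 for 5, against 12.0% of all genes. In limma, 0 of the 74 passed an adjusted p of 0.05 (0% of all genes) and 1 had an unadjusted p under 0.05 (0.357% of all genes). Ugt1a6a, a glucuronidating Nrf2 target, was the 1 gene of the 74 past the thresholds of the study (0.170% of all genes on the lower side) and is named for that. It had log2 values of 4.20 and 3.39 with TCQA, against 5.94 on Control 1 and 4.78 on Control 2, so that both TCQA arrays were below both control arrays, with a log2 ratio of -1.56 that was -0.98 without Control 1.

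Markers of several tissues moved with the antioxidant genes. The median log2 value of the members was 2.77 on TCQA 1 and 2.70 on TCQA 2, against 4.27 on Control 1 and 2.75 on Control 2. Of 10 skeletal muscle markers, 9 were above every other array on Control 1 by at least 2, against 12.0% of all genes. Their medians were 2.49 and 3.21 with TCQA, against 10.51 on Control 1 and 2.44 on Control 2. Ribosomal protein genes (74 genes) had 3.25 and 3.11 with TCQA, against 9.28 on Control 1 and 3.29 on Control 2. Each of these lists was high on Control 1 alone. Hepatocyte markers (7 of 8 measured, 5 with that excess) had 2.79 and 3.16 with TCQA, against 7.0 on Control 1 and 2.89 on Control 2, and Alb, serum albumin, had 2.84 and 2.84 with TCQA, against 9.09 on Control 1 and 3.05 on Control 2. Ttr, a plasma carrier made by liver, had 1.78 on TCQA 1 and 7.75 on TCQA 2, against 8.57 on Control 1 and 1.30 on Control 2, and so was high on 1 array of each group. Liver is rich in Cat, Mgst1, Gstm1 and Mt1, and the part of liver, muscle or keratinocyte RNA in the values of the antioxidant genes was not tested. Melanocyte markers (6 genes) had 3.16 and 3.23 with TCQA, against 2.09 on Control 1 and 2.96 on Control 2. Control 1 was the lowest array for 5 of these 6 and for 5 of 5 mast cell markers, against 53.6% of all genes. Macrophage markers (6 genes, 1 with the excess of at least 2) had 2.38 and 2.38 with TCQA, against 2.29 on Control 1 and 2.34 on Control 2.

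**Figure D4:**
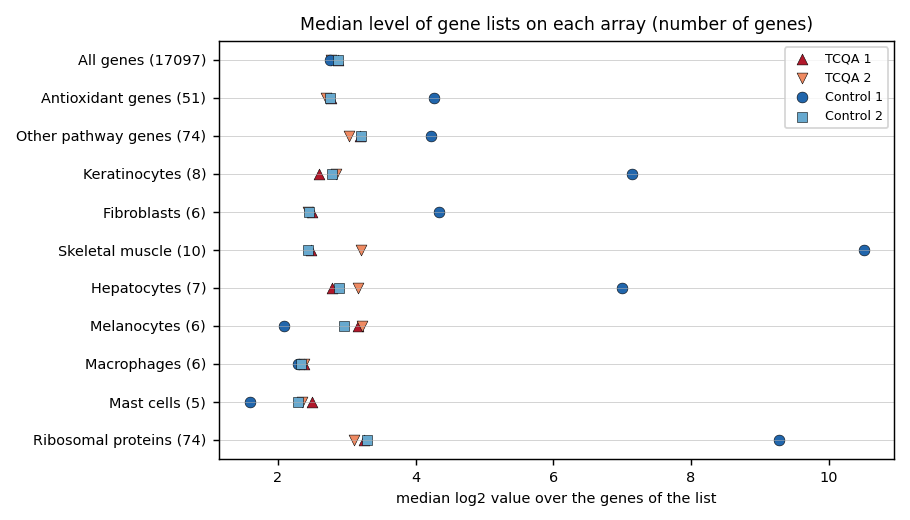
Median log2 value (x axis) over the genes of each list (rows, number of genes in brackets) on TCQA 1, TCQA 2, Control 1 and Control 2. The antioxidant genes have 4.27 on Control 1 where the other arrays have 2.70 to 2.77, and the ribosomal proteins have 9.28 where those have 3.11 to 3.29.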

How the data were processed

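RNA from dorsal skin given TCQA or Milli-Q water was hybridized to 4 Affymetrix mouse PM arrays in strip format. The authors deposited log2 values made with RMA. Per the submitters' processing notes, the software was Affymetrix Expression Console and Transcriptome Analysis Console. Whether the arrays were normalized together is not given in the sources used here, and no depth applies to array values. Gene names came from the platform annotation (28898 probe sets with 1 gene, and 551 with several, which were left unnamed). All 51 members matched the RefSeq gene table by gene identifier. The members and lists were chosen with earlier results of these data known.

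The comparison of TCQA with control used limma 3.58.1 (R 4.3.3) over 45037 probe sets (two-sided, Benjamini-Hochberg, 2 residual degrees of freedom, no filter, no block). The step was first tested on simulated data with the spread of the arrays other than Control 1. That simulation cannot show how the step behaves with the gap between both control arrays. Lists are described by counts and medians. Values on every array are given for the single genes named by the rule (Cat, Srxn1 and those of glutathione synthesis and the Nrf2 axis), and in each family for the 2 brightest members without Control 1 and the 2 with the largest difference (30 genes). Others given on every array (such as Gpx2, Gpx5, Gsto1, Mgst2 and Txnrd2) were named after their values were seen. Alternatives were other normalizations, a brightness filter, the trend and robust options of limma, a block on the replicate number, an unmoderated test, other probe set choices and leaving out each array.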

Additional observations from a re-analysis of the deposited data

How the results depend on the processing

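The number of arrays and the gap between both control arrays limit every value. Of the members, 0 passed an adjusted p of 0.05 and 0 the thresholds of the study under every alternative except without Control 2, which gave 26 and 28 members. Over all probe sets the adjusted p was passed by 0 (141 at an unadjusted p under 0.05 in limma and 754 with the unmoderated test), and by between 0 and 10538 when 1 array was left out, the 10538 without Control 2. The members' median log2 fold change was -0.52, with -0.61 after centring on array medians and -0.28 after a further quantile normalization, and 82.4% and 66.7% of members were negative in these settings against 76.5%. Leaving out 1 array gave medians between -1.07 (Control 2) and 0.08 (Control 1). Sign changes of the log2 fold change are listed here only for the 30 genes selected above for values on every array. Other members also changed sign, such as Gpx6 (-0.43) and Prdx4 (0.03) without Control 1. A further quantile normalization gave 0.088 for Gclm, 0.057 for Gsr, 0.59 for Gstm3, 0.003 for Gstm7, 0.087 for Nqo1 and 0.77 for Txn2, and centring gave -0.036 for Srxn1. Averaging all probe sets of a gene gave 0.24 for Gstm3 and 0.22 for Gstm7. Keeping only plain probe sets left 43 members, with 0.49 for Gstm3, 0.35 for Mgst1 and 0.087 for Mt1. This setting also dropped probe sets with the suffix for transcripts of 1 gene, such as the chosen one of Mgst1. The choice of probe set without Control 1 gave 0.35 for Mgst1, 0.087 for Mt1 and 0.41 for Sod2. When each array was left out, the lowest value (without Control 2) and the highest (without Control 1) were -4.89 and 0.075 for Cat, -0.80 and 0.095 for Gclc, -0.52 and 0.41 for Gclm, -5.09 and 0.16 for Gpx1, -3.997 and 0.18 for Gpx3, -0.15 and 0.13 for Gsr, -6.14 and 0.51 for Gstp1, -4.91 and 0.34 for Mgst1, -2.84 and 0.079 for Mgst3, -5.77 and 0.41 for Mt1, -3.14 and 0.22 for Mt4, -6.08 and 0.083 for Prdx1, -2.16 and 0.18 for Prdx3, -3.77 and 0.38 for Txn1 and -3.40 and 0.089 for Txnrd1. The lowest without Control 1 and the highest without Control 2 were -0.73 and 0.71 for Gstm7 and -0.25 and 0.68 for Mt3. With the extremes set by leaving out a TCQA array they were -0.29 and 0.17 for Gss, -0.27 and 0.25 for Gstm3, -0.35 and 0.030 for Nqo1, -0.062 and 0.49 for Sod3 and -0.031 and 0.13 for Srxn1. The causes were not tested. With the replicate number as a block, 0 members and 0 probe sets passed (281 probe sets at an unadjusted p under 0.05). The numbers do not pair the mice in the sources used here, and same-numbered arrays deviated with a correlation of -0.12 over probe sets. A block with crossed numbers, chosen after seeing the data, gave 0 members and 0 probe sets (69 at an unadjusted p under 0.05).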
